A study of Rattus norvegicus with 12 samples.

Results

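The 10 genes described here act in bone morphogenetic protein (BMP) signalling and were measured in rat calvarial bone, the flat bone of the skull roof. They are the ligand genes Bmp2, Bmp3, Bmp4, Bmp6 and Bmp7, the antagonist genes Nog, Grem1 and Chrd, and the response genes Id1 and Smad6. Members were the non-control probes whose gene name equals a listed symbol. All 10 members had a probe, and 9 of them passed the filter on dim probes and were tested among 22718 genes. The study set calvaria of 10-week-old rats ablated with an Er:YAG laser, a pulsed infrared laser that is strongly absorbed by water, beside calvaria drilled with a rotating bur and calvaria whose bone was not ablated. Rectangular defects of 8 by 3 mm were made by laser (20 Hz, output of 127 mJ per pulse) or by bur, and bone was taken 72 h later. The treatment protocol says that the periosteum was taken off the control bone, whereas other labels call it non-treated, so the labels differ on whether the control had surgery. Strain and sex are not given in the sources used here. Each group has 4 arrays, and the labels do not tie them to separate rats, so p-values cover the spread among these arrays alone, and that spread can be technical.

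BMPs are secreted dimers that bind paired type I and type II serine/threonine kinase receptors, which phosphorylate SMAD1, SMAD5 and SMAD9. These join SMAD4 in the nucleus and switch on genes such as Id1 and Smad6, and Smad6 encodes an inhibitor that feeds back on the receptor. Noggin, gremlin 1 and chordin bind BMPs outside the cell and keep them from their receptors. In bone, BMP2, BMP4, BMP6 and BMP7 are known for driving osteoblast differentiation, while BMP3 is known for opposing it in mouse.

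The array reads each gene through a synthetic probe of 60 bases, and the ligands' probes are shown because related ligands share sequence. The Bmp2, Bmp4 and Bmp6 probes below lie in the coding sequence of the mature ligand and overlap when aligned. Capitals in the Bmp2 and Bmp6 probes mark bases identical to the Bmp4 probe, and capitals in the Bmp4 probe mark the 15 bases identical in all 3. Positions are those the files give on build rn4: chr3:121381127-121381186 (plus strand) for Bmp2, chr15:22283362-22283421 (minus strand) for Bmp4 and chr17:32380203-32380262 (minus strand) for Bmp6.
Bmp2 probe: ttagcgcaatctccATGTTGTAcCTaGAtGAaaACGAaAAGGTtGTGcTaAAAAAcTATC
Bmp4 probe: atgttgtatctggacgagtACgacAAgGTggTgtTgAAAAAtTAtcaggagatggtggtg
Bmp6 probe: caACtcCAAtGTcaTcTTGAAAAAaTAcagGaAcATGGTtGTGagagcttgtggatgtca
The Bmp2 probe matched the Bmp4 probe at 36 of 46 overlapping bases (78.3%), and the Bmp6 probe matched it at 28 of 43 (65.1%). How far the labelled RNA of either gene binds the other's probe was not tested.

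Every level below is log2 of the processed signal minus the 75th percentile of its own array, so 0 is the brightness of the probe at that percentile and each unit is a doubling. Levels of different probes are not set against each other. The share of probes well above background was 58.1% to 67.0% per array, and arrays of a group correlated at r of 0.975 to 0.984 (laser), 0.979 to 0.983 (bur) and 0.948 to 0.980 (control). All 4 control arrays lay on slide 1 and all laser and bur arrays on slide 2, and the scan date differed between the slides. Slide, scan date and ablation therefore cannot be told apart. Control and laser arrays lay in column 2 of their slide and bur arrays in column 1, so bur against control is tied to column as well. All 9 bone matrix markers were well above background on all 12 arrays. Their mean level ranged from 2.80 to 3.07 in laser arrays, from 2.32 to 2.85 in bur arrays and from 2.10 to 2.55 in control arrays. Of 5 osteocyte markers, Fgf23 was well above background on 0 of 12 arrays, and the mean of the other 4 ranged from 1.11 to 2.06 in laser, 0.50 to 1.37 in bur and -0.33 to 0.56 in control arrays. All 4 tested osteocyte markers rose after laser and 1 of 4 after bur, whereas 9 of 10 erythroid and 4 of 5 tested adipocyte markers fell after each kind of ablation (limma). Of 9 bone matrix markers 4 rose after laser and 1 after bur, and of 8 macrophage markers 3 and 5. Of 5 tested cartilage markers 1 rose after laser and 0 after bur. Of 7 tested neutrophil markers 3 fell after laser and 2 after bur. For the 7 B cell markers 2 and 3 fell, and for the 7 endothelial markers 1 and 2. None of the 7 skeletal muscle markers was called. Of all genes tested, 9.26% rose and 13.0% fell after laser, and 9.99% rose and 16.2% fell after bur. The mean of the 10 erythroid markers was 0.69 to 2.28 in laser, 0.26 to 2.13 in bur and 2.22 to 4.19 in control arrays, and that of 5 adipocyte markers (a list of 6, without Plin1) was -3.61 to -1.96, -3.53 to -1.79 and -1.33 to -0.21 in the same order. Of the 8 neutrophil markers, Ltf was well above background on 0 of 12 arrays. The other 7 averaged -0.07 to 1.70 in laser, 0.59 to 2.07 in bur and 1.49 to 3.61 in control arrays, while the 8 macrophage markers averaged 0.15 to 0.91, 0.05 to 1.09 and -1.27 to -0.12. The 7 skeletal muscle markers averaged -3.11 in laser array 1, -1.54 in bur array 1 and -0.82 in control array 1, and -5.03 to -4.38 on the other 9 arrays. In bulk bone, fewer cells of a type and less RNA per cell cannot be told apart, and the part of these cell markers in the differences below was not tested.

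Among the ligands, Bmp4 rose after laser ablation, the 1 of 9 tested members to pass, where 22.3% of all genes tested did. It read -2.18, -2.05, -1.53 and -1.53 in laser arrays 1 to 4, -1.87, -2.27, -2.29 and -1.83 in bur arrays 1 to 4, and -2.88, -2.22, -2.27 and -2.47 in control arrays 1 to 4. Every laser array lay above every control array, although the lowest laser array exceeded the highest control array by a small margin, and the bur arrays overlapped both. As a share of the 75th percentile, laser arrays ran from 22.0% to 34.7%, bur arrays from 20.5% to 28.1% and control arrays from 13.5% to 21.4%. Laser-ablated bone averaged -1.82 ± 0.34 and control bone -2.46 ± 0.30 (SD, n = 4 each), a difference of 0.64 (1.56-fold, adjusted p = 0.0482 by limma, SE 0.21, 95% interval 0.18 to 1.1). This lies close to the threshold of 0.05. It was lost with the replicate number as a block (adjusted p = 0.0532 by limma). With another background correction (normexp, with an offset of 50 added to every spot) the difference was 0.38 (limma adjusted p = 0.145). An added offset makes log2 differences of dim probes smaller, and its part in the normexp values given here and below was not tested. Without the filter on dim probes the limma adjusted p of Bmp4 was 0.0817, and with only laser and control arrays in the fit 0.0887. With 1 array left out in turn, the call held without laser array 1 or control array 3 but in none of the other 10 fits. For laser against control the authors' deposited table gave Bmp4 a difference of 0.47 with their adjusted p of 0.0655. Bur-drilled bone averaged -2.06 ± 0.25, a difference of 0.40 from control bone (adjusted p = 0.174 by limma, 95% interval -0.06 to 0.85), and laser-ablated bone differed from it by 0.24 (adjusted p = 0.9998 by limma, 95% interval -0.22 to 0.70). The order was thus laser, bur, control, and the laser and bur groups as neighbours did not differ beyond their spread, nor did bur and control.

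**Figure D1:**
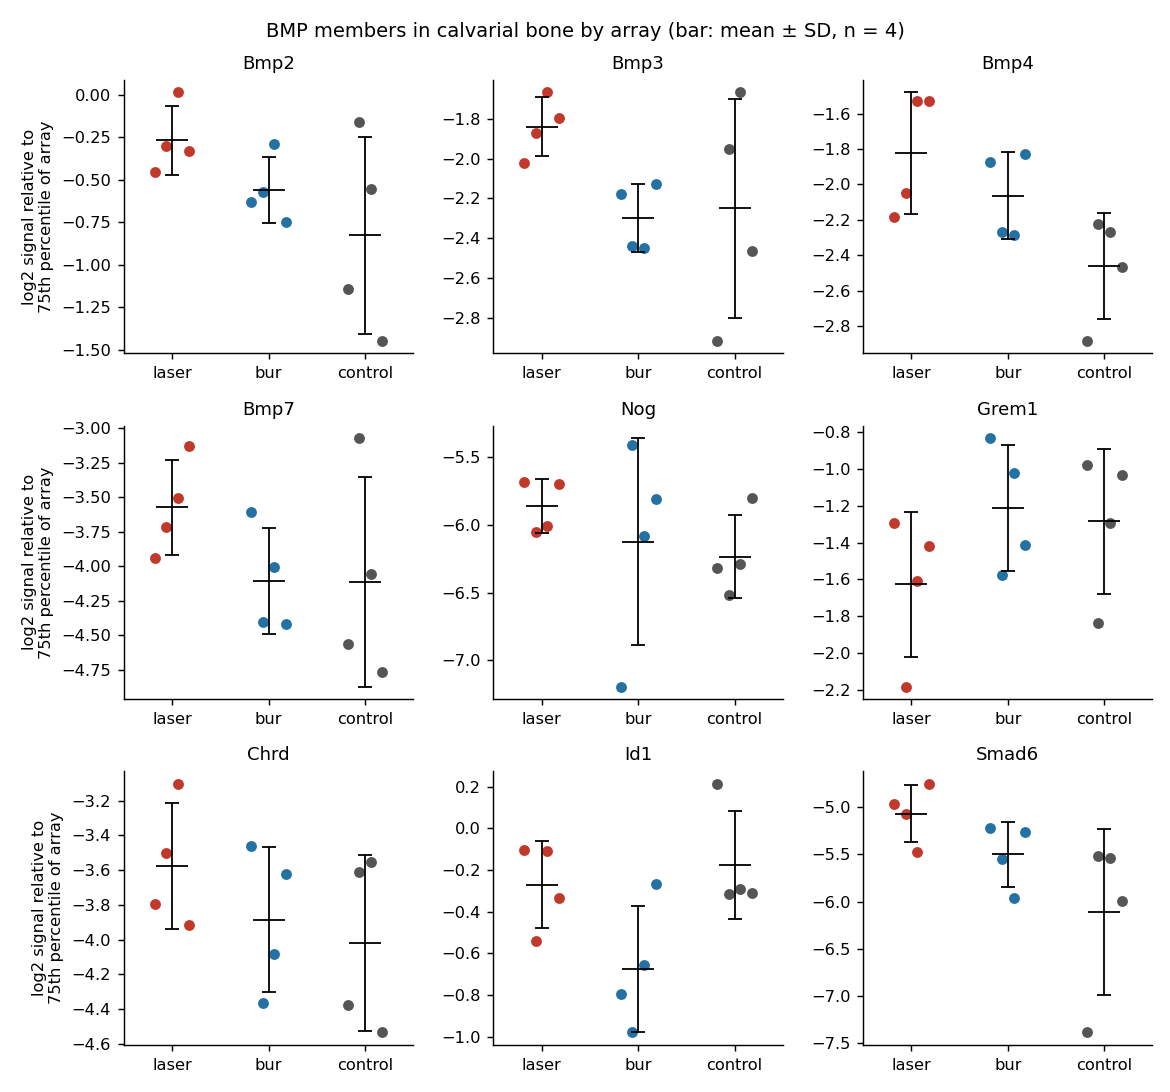
Log2 signal of the 9 tested members relative to the 75th percentile of the array (vertical axis, a separate range for each gene) in laser, bur and control arrays. Points are single arrays and bars are means with SD (n = 4). For Bmp4 and Smad6 all laser points lie above all control points by a narrow margin. For Bmp3 all laser points lie above all bur points, and control 1 stands above the other control points for Id1.

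Bmp2, the ligand most used to induce bone, was measured by 3 probes. The brightest read -0.46, -0.30, 0.01 and -0.33 in laser arrays, -0.63, -0.57, -0.29 and -0.75 in bur arrays, and -1.14, -0.16, -0.55 and -1.45 in control arrays. The control arrays spread over a wider range than the ablated ones, and control array 2 stood above 3 of the 4 laser arrays. The means were -0.27 ± 0.20 in laser, -0.56 ± 0.20 in bur and -0.83 ± 0.58 in control bone (SD, n = 4 each). The laser arrays differed from control by 0.56 (adjusted p = 0.121 by limma, 95% interval 0.01 to 1.1) and bur minus control 0.27 (adjusted p = 0.441 by limma, 95% interval -0.28 to 0.81), so neither passed. With 1 array left out, the laser difference ran between 0.35 (without control array 4, limma adjusted p = 0.293) and 0.78 (without control array 2, limma adjusted p = 0.0410), and it was 0.22 with array weights.

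The other Bmp2 probes lie at chr3:121380511-121380570 and chr3:121382372-121382431 (rn4, plus strand), before and after the brightest along the gene. The earlier of them is shown because its difference was the larger; it lies in the coding sequence of the propeptide.
Bmp2 first probe: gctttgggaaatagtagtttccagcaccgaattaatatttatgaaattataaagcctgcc
It read -4.76, -4.36, -4.35 and -4.73 in laser arrays, -4.91, -4.81, -4.80 and -4.79 in bur arrays, and -6.69, -4.78, -5.21 and -5.97 in control arrays, of which 3 of 4 were well above background. On this probe all laser arrays lay above all control arrays, by a narrow margin. In a fit that took each of 29775 kept probes on its own, added after the data were seen, its laser difference was 1.11 (SE 0.33, limma adjusted p = 0.0374) and its bur difference 0.83 (limma adjusted p = 0.0830). The brightest probe gave 0.56 and 0.27 in that fit, and the third probe 0.32 and -0.16 (limma adjusted p = 0.338 and 0.640). The 3 probes agreed in sign for laser against control and not for bur against control, and whether their differences were unequal was not tested. In the same fit by probe, Bmp4 differed by 0.64 for laser against control and did not pass (limma adjusted p = 0.0512). The share of all kept probes that passed in that fit is not given here. In the authors' deposited table, the Bmp2 line that carries the accession of the first 2 probes gave 0.47 for laser against control (their adjusted p = 0.0224) and 0.27 for bur against control (their adjusted p = 0.136). That line averaged 7.61 over the 12 arrays in the authors' deposited table, beside 6.08 and 9.49 for log2 of the scanner signal of those probes and 7.78 for the average of the pair, and whether it combines them is not stated. The authors' deposited table holds a second Bmp2 line, that of the third probe, with 0.31 for laser (their adjusted p = 0.189) and -0.15 for bur against control (their adjusted p = 0.527).

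**Figure D2:**
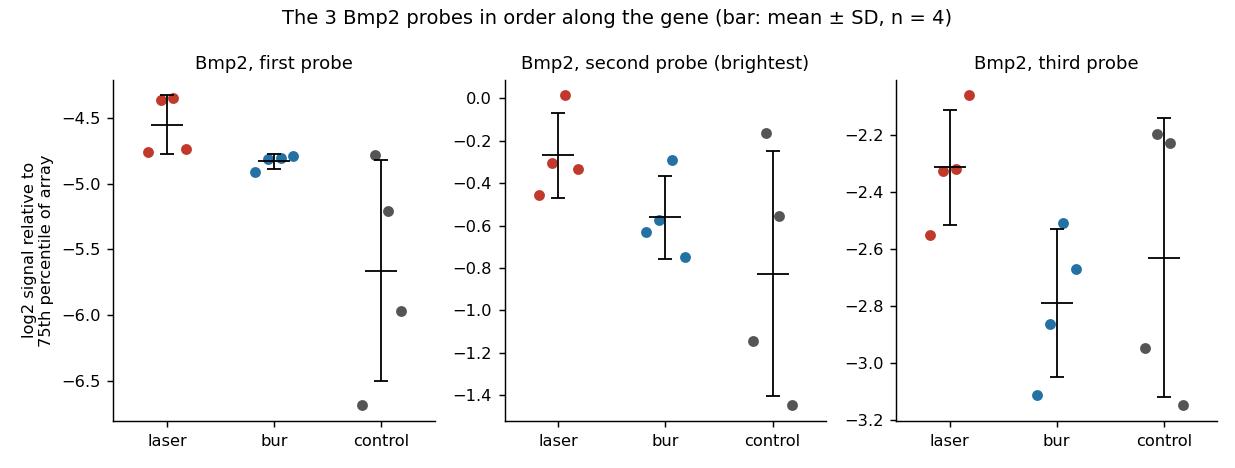
Log2 signal of the 3 Bmp2 probes, in their order along the gene, relative to the 75th percentile of the array (vertical axis, a separate range for each probe) in laser, bur and control arrays. Points are single arrays and bars are means with SD (n = 4). Controls range from -6.69 to -4.78 on the first probe, below all laser points, and overlap the laser points on the other 2.

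Bmp3, the ligand that opposes osteogenic BMPs, read -2.02, -1.87, -1.66 and -1.79 in laser arrays and -2.18, -2.44, -2.45 and -2.13 in bur arrays. It read -2.92, -1.95, -1.67 and -2.47 in control arrays. Every laser array lay above every bur array, while the control arrays spanned both groups. Laser minus bur was 0.46 (95% interval -0.05 to 0.97) with a limma adjusted p of 0.9998. For laser against control the value was 0.41 (adjusted p = 0.214 by limma, 95% interval -0.10 to 0.93) and bur minus control -0.05 (adjusted p = 0.898 by limma, 95% interval -0.56 to 0.47). Leaving out 1 array moved the laser difference from control between 0.19 (without control array 1, limma adjusted p = 0.529) and 0.61 (without control array 3, limma adjusted p = 0.0450).

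Bmp7, an osteogenic ligand also needed in kidney and eye, read -3.94, -3.72, -3.50 and -3.13 in laser arrays, -3.61, -4.40, -4.00 and -4.42 in bur arrays, and -4.56, -3.07, -4.06 and -4.77 in control arrays. Control array 2 was the highest of the 12, and all 3 groups overlapped. The means were -3.57 ± 0.34, -4.11 ± 0.38 and -4.11 ± 0.76 in laser, bur and control bone (SD, n = 4 each). Relative to control, laser gave 0.54 (adjusted p = 0.262 by limma, 95% interval -0.21 to 1.29), which ran between 0.32 (without control array 4, limma adjusted p = 0.534) and 0.89 (without control array 2, limma adjusted p = 0.0477) with 1 array left out, and bur minus control was 0.01 (adjusted p = 0.990 by limma, 95% interval -0.74 to 0.76). Bmp6, a ligand made by several cell types including liver endothelium, was not tested. It was well above background on 1 laser, 1 bur and 1 control array, with a range of -8.57 to -7.10 in laser, -9.20 to -6.36 in bur and -8.01 to -5.30 in control arrays.

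The antagonists gave no difference that passed the test. Nog, which encodes noggin, was dim. Its probe lies at chr10:77690164-77690223 (rn4, minus strand) in the coding sequence and is shown because it is the single probe that reads this antagonist.
Nog probe: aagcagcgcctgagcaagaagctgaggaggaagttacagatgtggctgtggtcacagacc
It read -5.69, -6.05, -6.01 and -5.69 in laser arrays, -7.19, -5.41, -6.09 and -5.81 in bur arrays, and -6.32, -6.52, -6.29 and -5.80 in control arrays, 3 of which were well above background. Bur array 1 was the lowest of the 12 and bur array 2 the highest, so the groups overlapped. Between laser and control the difference was 0.37 (adjusted p = 0.407 by limma, 95% interval -0.33 to 1.07), which turned to -0.08 with another background correction (normexp). Bur minus control was 0.11 (adjusted p = 0.824 by limma, 95% interval -0.59 to 0.81), and -0.35 with normexp.

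Grem1, which encodes gremlin 1, an antagonist of BMP2 and BMP4, was the single tested member whose mean was lowest in laser-ablated bone. Its brighter probe is spotted 10 times on each array, and the spots agreed within an SD of 0.05 to 0.16 on the log2 scale. It read -1.29, -2.18, -1.61 and -1.42 in laser arrays, -0.83, -1.58, -1.02 and -1.41 in bur arrays, and -0.98, -1.84, -1.29 and -1.03 in control arrays. Array 2 was the lowest in each group, and the groups overlapped. The laser arrays differed from control by -0.34 (adjusted p = 0.339 by limma, 95% interval -0.90 to 0.21), bur minus control was 0.07 (adjusted p = 0.851 by limma, 95% interval -0.48 to 0.63) and laser minus bur was -0.42 (adjusted p = 0.9998 by limma, 95% interval -0.97 to 0.14). A dimmer Grem1 probe, well above background on 8 of 12 arrays, differed by -0.62 for laser and by 0.13 for bur against control.

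Chrd, which encodes chordin, read -3.80, -3.50, -3.10 and -3.91 in laser arrays, -3.46, -4.37, -4.08 and -3.62 in bur arrays, and -4.37, -3.61, -3.55 and -4.53 in control arrays. The 3 groups overlapped. For laser against control the value was 0.44 (adjusted p = 0.273 by limma, 95% interval -0.18 to 1.07), bur minus control was 0.13 (adjusted p = 0.754 by limma, 95% interval -0.49 to 0.76) and laser minus bur was 0.31 (adjusted p = 0.9998 by limma, 95% interval -0.32 to 0.93).

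RefSeq promoter windows of build GRCr8 were found for 7 of the 10 members (Bmp3, Bmp4, Bmp6, Nog, Grem1, Chrd and Id1). The 250 bases before each start were searched for GGCGCC, a palindrome that reads the same on both strands and is known as a binding motif of BMP-responsive SMADs. It was in the windows of Nog, Grem1 and Chrd, 1 match each, and in none of the other 4 windows. Of all 33469 windows of that length, 8.69% held it. The windows that held it had a median G and C share of 66.8%, beside 51.2% over all windows, and the windows of Nog, Grem1 and Chrd had 74.0%, 72.0% and 78.4%. A second motif searched, GTCT, was in the windows of all 7 members with a window except Bmp3, and in 84.0% of all windows. A match of either motif describes the window and is not a measured binding site. The GGCGCC matches stand 51, 91 and 203 bases before the starts, at chr10:74627535-74627564, chr3:120978393-120978422 and chr11:93685286-93685315 (all minus strand), shown with the motif in capitals.
Nog site: cagcgaggagccGGCGCCcccagcgcccca
Grem1 site: cgcggcggcgacGGCGCCtgaccaatggag
Chrd site: cgggccagagccGGCGCCtagggcactaga

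Neither response gene passed the test in any comparison. Smad6, which encodes the inhibitory SMAD of the BMP branch, was read by 1 probe, which is shown because it spans an intron: on rn4 it reaches over 4300 bases of chr8:68199857-68204156 (minus strand), and its letters are coding sequence.
Smad6 probe: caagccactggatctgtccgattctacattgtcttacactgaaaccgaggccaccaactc
It read -4.97, -5.07, -5.47 and -4.75 in laser arrays, -5.22, -5.55, -5.97 and -5.26 in bur arrays, and -7.39, -5.52, -5.54 and -5.99 in control arrays, 3 of which were well above background. All laser arrays lay above all control arrays, by a narrow margin (lowest laser array -5.47, highest control array -5.52), and control array 1 stood far below the rest. Relative to control, laser gave 1.04 (2.06-fold, adjusted p = 0.0618 by limma, SE 0.37, 95% interval 0.23 to 1.85), which was 0.09 with normexp (limma adjusted p = 0.694), 0.62 without control array 1 and 1.23, past the threshold, without control array 3 (limma adjusted p = 0.0312). Bur minus control was 0.61 (adjusted p = 0.233 by limma, 95% interval -0.20 to 1.42), and -0.24 with normexp. For laser against control the authors' deposited table gave Smad6 a difference of 0.45 with their adjusted p of 0.0158.

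Id1, which encodes a helix-loop-helix protein that blocks differentiation factors and is a direct SMAD target, read -0.10, -0.54, -0.11 and -0.33 in laser arrays, -0.79, -0.98, -0.66 and -0.27 in bur arrays, and 0.21, -0.32, -0.29 and -0.31 in control arrays. Bur arrays 1, 2 and 3 lay below all laser and control arrays, bur array 4 lay among them, and control array 1 stood above the rest. Bur-drilled bone averaged -0.67 ± 0.30, laser-ablated bone -0.27 ± 0.21 and control bone -0.18 ± 0.26 (SD, n = 4 each). Bur minus control was -0.50 (adjusted p = 0.0669 by limma, SE 0.19, 95% interval -0.91 to -0.09), and it passed without bur array 4 (-0.63, limma adjusted p = 0.0373). Between laser and control the difference was -0.10 (adjusted p = 0.731 by limma, 95% interval -0.50 to 0.31), and 0.03 without control array 1. In the authors' deposited table, bur against control was -0.52 for Id1 with their adjusted p of 0.0319.

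Counted together, 1 of 9 tested members passed for laser against control (Bmp4, higher), where 22.3% of all genes tested passed, 9.26% higher and 13.0% lower. For bur against control 0 of 9 passed, where 26.2% of all genes did (9.99% higher and 16.2% lower), and for laser against bur 0 of 9, where 0% did. At an unadjusted p under 0.05, 3 of 9 members (Bmp2, Bmp4 and Smad6) passed for laser against control and 1 of 9 (Id1) for bur against control, beside 38.9% and 41.0% of all genes. None passed so for laser against bur, beside 2.53% of all genes. Laser and control values did not overlap for 2 of 9 members, beside 19.0% of all genes, and bur and control values did not overlap for 0 of 9, beside 25.3%. These shares of called members were near or below those of all genes. The members' median difference was 0.44 for laser and 0.11 for bur against control, beside 0.02 and -0.00 over all genes. Both comparisons use the same 4 control arrays.

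**Figure D3:**
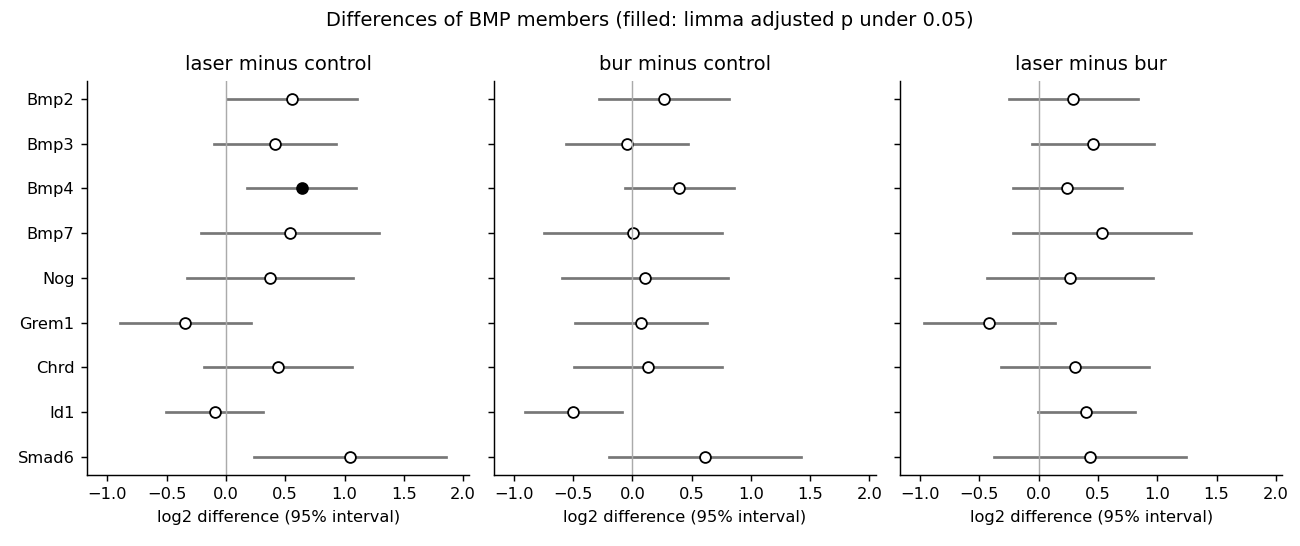
Log2 differences of the 9 tested members (rows) in 3 comparisons (panels), with 95% intervals as lines. The filled circle is the member with a limma adjusted p under 0.05, Bmp4 at 0.64 for laser minus control, and the other intervals that leave out 0 are those of Bmp2 and Smad6 for laser minus control and of Id1 for bur minus control.

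Laser and bur arrays shared a slide, but all laser arrays lay in its column 2 and all bur arrays in its column 1, so column and treatment cannot be told apart. All 9 members had a limma adjusted p of 0.9998. Laser minus bur was positive for 8 of 9 members (Nog turned to -0.09 without bur array 1), beside 54.1% of all genes, with a median of 0.31 beside 0.02. Bmp3 was the single member of 9 whose laser and bur values did not overlap, beside 2.15% of all genes. The remaining differences were 0.53 for Bmp7 (95% interval -0.22 to 1.28), 0.43 for Smad6 (-0.38 to 1.24), 0.40 for Id1 (-0.0049 to 0.81), 0.29 for Bmp2 (-0.25 to 0.84) and 0.26 for Nog (-0.43 to 0.96). Taken by shared replicate number, laser exceeded bur in 4 of 4 pairs for Bmp2, Bmp3 and Smad6 and in 3 of 4 for Bmp4, Bmp7, Nog and Id1 and in 2 of 4 for Chrd, while for Grem1 laser was lower in 4 of 4. With that number as a block, every member's limma adjusted p was 0.9997.

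Likeness over the 12 arrays was measured as the mean absolute difference of profiles centred on their own means. Eri3 (0.113) and Ampd2 (0.114) were nearest to Bmp4 among the 12469 genes that had a gene symbol and were well above background on all arrays. Eri3, an exoribonuclease family gene, read -3.46, -3.17, -2.64 and -2.93 in laser, -3.30, -3.64, -3.58 and -3.26 in bur, and -4.19, -3.78, -3.66 and -4.07 in control arrays. Ampd2, an AMP deaminase gene, averaged -2.55 ± 0.29 in laser, -2.85 ± 0.23 in bur and -3.15 ± 0.20 in control bone (SD, n = 4 each).

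Among other ligands of the family, 7 of 10 listed genes were tested, and Bmp5 and Gdf7 fell after both kinds of ablation. That is 2 of 7 in each comparison, beside 22.3% of all genes tested passing after laser and 26.2% after bur. Bmp5, a ligand that shapes cartilage and bone in mouse, read -0.13, -0.57, -0.79 and -1.26 in laser arrays, -0.79, -0.16, -1.38 and -1.33 in bur arrays, and 2.88, 2.17, 0.89 and 2.28 in control arrays. No ablated array came near the lowest control array. Bmp5 fell by 2.74 (SE 0.41, limma adjusted p = 0.00402) after laser and by 2.97 (SE 0.41, limma adjusted p = 0.00213) after bur, and both calls held in all 12 fits with 1 array left out. Gdf7, a ligand known from the nervous system and tendon, averaged -4.76 ± 0.27 in laser, -4.64 ± 0.26 in bur and -3.80 ± 0.55 in control bone (SD, n = 4 each). Its falls of 0.97 (limma adjusted p = 0.0262) and 0.84 (limma adjusted p = 0.0345) each held in 7 of 12 such fits. With normexp the laser difference was -0.46 (limma adjusted p = 0.0815), and with the deposited values the bur difference was -0.46 (limma adjusted p = 0.0658). For both genes laser minus bur was within the spread, 0.23 for Bmp5 (95% interval -0.68 to 1.13) and -0.12 for Gdf7 (95% interval -0.69 to 0.44). None of the 7 tested genes of this list was called higher in either comparison.

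Receptors and co-receptors were all tested, 12 of 12, and 3 rose and 0 fell after each kind of ablation. For comparison, 22.3% of all genes tested passed in either direction after laser and 26.2% after bur. Bmpr2, the type II receptor dedicated to BMPs, averaged -2.33 ± 0.21 in laser, -2.38 ± 0.24 in bur and -3.37 ± 0.65 in control bone (SD, n = 4 each). It rose by 1.04 after laser (limma adjusted p = 0.0258) and by 0.98 after bur (limma adjusted p = 0.0256), although control array 3 at -2.51 lay within the ablated range. The other 2 Bmpr2 probes also averaged higher, by 0.88 and 1.37 after laser and by 0.80 and 1.51 after bur. Acvr1, a type I receptor, read 1.30, 1.20, 1.43 and 1.37 in laser, 0.82, 0.68, 0.99 and 1.23 in bur, and 0.16, 0.74, 0.95 and 0.00 in control arrays. Laser arrays did not overlap control arrays, and the rise after laser was 0.86 (limma adjusted p = 0.0202), while bur minus control was 0.47 (limma adjusted p = 0.114). A dimmer Acvr1 probe, well above background on 10 of 12 arrays, averaged 1.1 higher after laser and 0.80 higher after bur. Acvr2b, a type II receptor shared with activins, rose by 1.15 (limma adjusted p = 0.0252) after laser and by 0.97 (limma adjusted p = 0.0370) after bur, though 1 of 4 control arrays was well above background and with normexp the values were 0.07 and -0.20. Bmpr1b, a type I receptor needed for limb cartilage in mouse, rose by 2.26 after bur (limma adjusted p = 0.0365) with the same limit on its controls, and with normexp it was -0.04.

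Extracellular modulators other than the 3 members split in direction, 2 higher and 1 lower of 13 tested (of 15 listed) after laser, and 1 higher and 2 lower after bur. The share of all genes tested that passed in either direction was 22.3% after laser and 26.2% after bur. Fstl3, a follistatin-like protein that binds activins and some BMPs, read -3.22, -2.95, -3.17 and -3.46 in laser, -3.73, -3.66, -3.13 and -3.46 in bur, and -4.54, -4.46, -3.98 and -4.80 in control arrays. All ablated arrays lay above all control arrays. It rose by 1.25 (SE 0.20, limma adjusted p = 0.00474) after laser and by 0.95 (SE 0.20, limma adjusted p = 0.00895) after bur, the second of which was lost with normexp (0.24, limma adjusted p = 0.133). Tll1, a tolloid-like metalloproteinase that cuts chordin, read -1.90, -2.26, -1.48 and -2.0 in laser, -2.01, -2.26, -2.13 and -2.03 in bur, and -0.97, -0.91, -1.10 and -0.89 in control arrays. The controls lay close together above every ablated array, and Tll1 fell by 0.94 (SE 0.16, limma adjusted p = 0.00583) after laser and by 1.14 (SE 0.16, limma adjusted p = 0.00213) after bur. Bmp1, a metalloproteinase of the same family that trims procollagen as well as chordin, rose by 1.05 after laser (limma adjusted p = 0.0447), a call that held in 3 of 12 fits with 1 array left out. Its bur difference was 0.69 (limma adjusted p = 0.141). Kcp, a chordin-like protein that enhances BMP signalling in mouse, fell by 0.77 after bur (limma adjusted p = 0.0166), with means of -2.28 ± 0.23 in bur and -1.51 ± 0.14 in control bone (SD, n = 4 each). After laser it differed by -0.34 (limma adjusted p = 0.206).

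**Figure D4:**
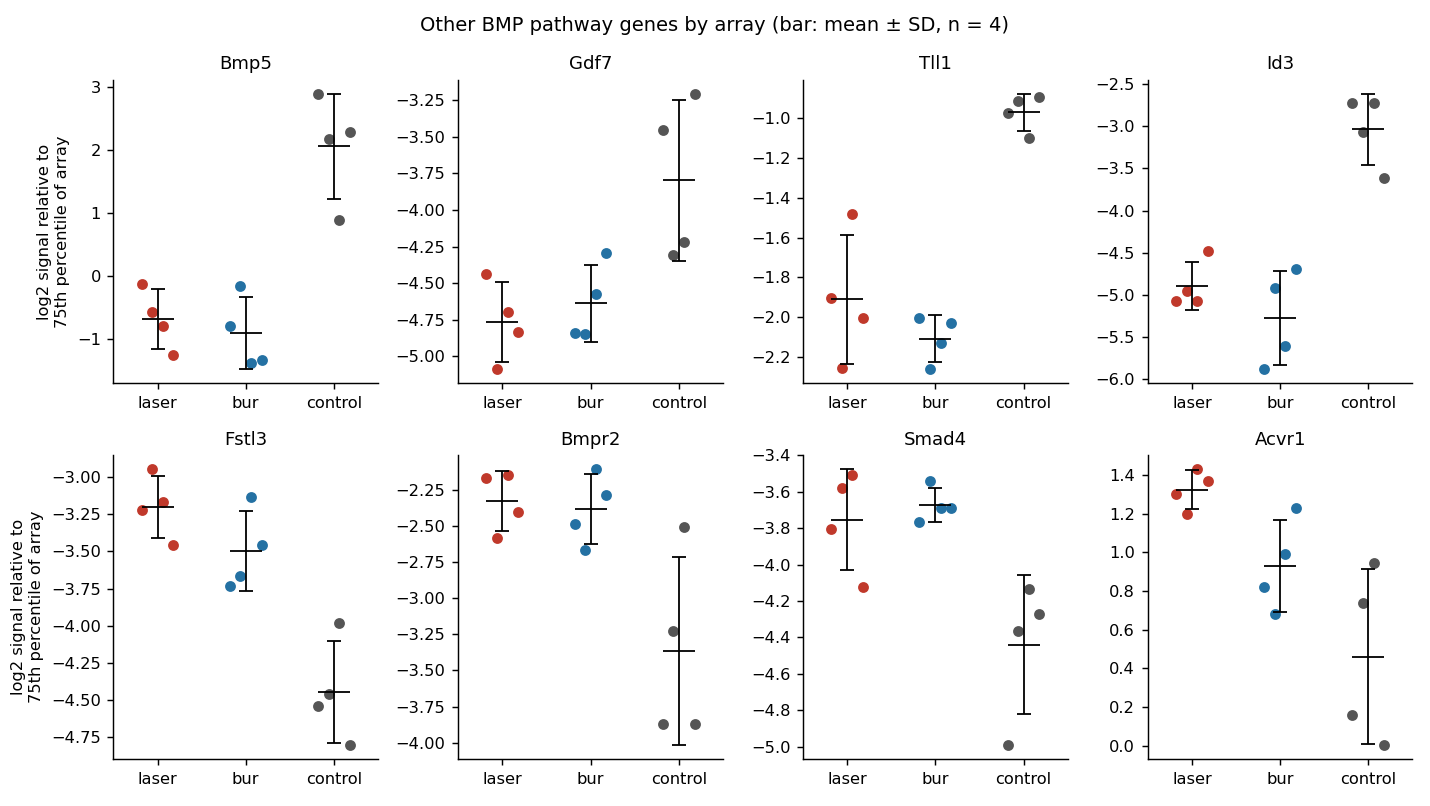
Log2 signal of 8 other BMP pathway genes relative to the 75th percentile of the array (vertical axis, a separate range for each gene) in laser, bur and control arrays. Points are single arrays and bars are means with SD (n = 4). Bmp5, Tll1 and Id3 are lower, and Fstl3 and Smad4 higher, in every ablated array than in every control array. For Smad4 the margin is narrow, with the lowest laser array at -4.12 and the highest control array at -4.13.

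Inside the cell, 2 of 10 SMADs and regulators rose after laser and 0 fell, and 1 rose and 1 fell after bur. Over all genes tested, 22.3% passed in either direction after laser and 26.2% after bur. Smad4, the common partner of receptor-activated SMADs, averaged -3.75 ± 0.28 in laser, -3.67 ± 0.09 in bur and -4.44 ± 0.38 in control bone (SD, n = 4 each). It rose by 0.69 (limma adjusted p = 0.0319) after laser and by 0.77 (limma adjusted p = 0.0182) after bur, and with normexp both calls were lost (0.27 and 0.21). A dimmer Smad4 probe, well above background on all 12 arrays, averaged 0.69 higher after laser and 0.32 higher after bur. Bambi, a pseudoreceptor without a kinase domain that dampens the signal, read 0.77, 1.03, 1.63 and 1.46 in laser, 0.41, 0.30, -0.03 and 1.45 in bur, and -0.39, 0.56, 0.15 and -0.25 in control arrays. Laser arrays lay above control arrays and the rise was 1.20 (limma adjusted p = 0.0268), while bur minus control was 0.51 (limma adjusted p = 0.252). Tob1, which restrains SMAD signalling in mouse osteoblasts, fell by 0.41 after bur (limma adjusted p = 0.0285), and laser minus control was 0.05 (limma adjusted p = 0.789). Laser minus bur for Tob1 was 0.46 without overlap (adjusted p = 0.9998 by limma, 95% interval 0.20 to 0.72).

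Of 10 other target genes, 1 rose and 1 fell after laser, and 0 rose and 1 fell after bur. Shares passing in either direction over all genes tested were 22.3% after laser and 26.2% after bur. Id3, a close relative of Id1, read -5.08, -4.95, -5.07 and -4.47 in laser, -5.88, -4.92, -5.60 and -4.69 in bur, and -2.72, -3.06, -2.73 and -3.62 in control arrays. Every ablated array lay well below every control array. Id3 fell by 1.86 (SE 0.29, limma adjusted p = 0.00452) after laser and differed by -2.24 (SE 0.29, limma adjusted p = 0.00171) after bur, and with normexp the differences were -0.88 and -1.21. Its relative Id1 differed by -0.10 and -0.50 in the same comparisons, as given above, and the difference between the 2 genes was not tested. Dlx5, a homeobox factor of osteoblasts, rose by 0.81 after laser (limma adjusted p = 0.0379), with laser arrays at 0.35 to 0.51 and control arrays at -0.96 to 0.16, and the call held in 5 of 12 fits with 1 array left out. Sp7, which encodes the osteoblast factor osterix, had a laser minus bur difference of 0.60 (95% interval 0.29 to 0.91) that did not pass (limma adjusted p = 0.9998), with laser arrays at -3.69 to -3.27 and bur arrays at -4.30 to -4.00.

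Across the 5 pathway lists, the calls of Bmp5, Fstl3, Tll1 and Id3 after laser, and of Bmp5, Fstl3, Tll1, Id3, Kcp and Smad4 after bur, held in all 12 fits with 1 array left out. The other named calls after laser were each lost without laser array 3, control array 1 or control array 4, and those after bur without bur array 1, bur array 3, control array 1 or control array 4. None of the tested genes of these lists passed for laser against bur. The list medians were 0.59 (other ligands), 0.57 (receptors), -0.13 (modulators), 0.22 (SMADs and regulators) and 0.33 (targets) for laser minus control, and 0.37, 0.49, 0.16, 0.20 and -0.00 for bur minus control.

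**Figure D5:**
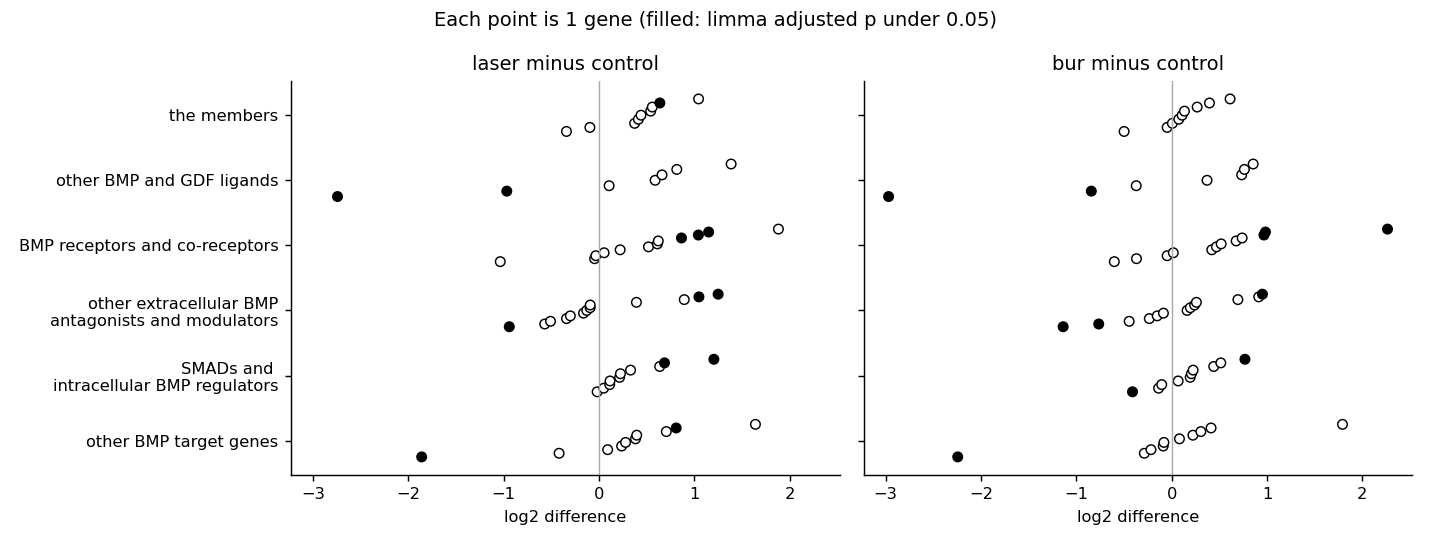
Log2 differences of single genes (points) by list (rows) for laser minus control and bur minus control, with filled points for a limma adjusted p under 0.05. Bmp5 is the leftmost filled point in both panels, at -2.74 and -2.97, and Id3 is the lowest among the target genes, at -1.86 and -2.24.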

How the data were processed

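Total RNA was labelled with Cy3 and hybridised to 1-colour Agilent arrays, 4 for each of 3 groups. The authors deposited the scanner intensity of each spot, extracted with Agilent Feature Extraction 11.0.1.1 per the submitters' processing notes, and a table of normalized log2 values with fold changes and p-values of their own, made with a test that the sources used here do not name. From the processed intensity, control and outlier spots were left out (unless all spots of a probe were outliers), log2 values were centred on each array's 75th percentile and spots of a probe were averaged. A probe was kept if well above background on at least 4 of 12 arrays (29775 of 45598), and the brightest kept probe stood for its gene name. Limma 3.58.1 in R 4.3.3 fitted a mean for each group over all 12 arrays, two-sided, with Benjamini-Hochberg adjustment over 22718 genes and a threshold of 0.05. No spot was saturated. The number of arrays limits the precision.

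Named genes are the members, up to 4 called genes with the largest change from each pathway list and comparison (with none called, the gene with the smallest p), and the 2 genes most like each called member. Members and lists were chosen with earlier results of these data known. Deviations of same-numbered laser and control arrays correlated at r of 0.126 to 0.336, where differently numbered arrays reached at most 0.125. Between laser and bur r was 0.158 to 0.341, beside at most 0.143. Between bur and control it was -0.05 to 0.284, beside at most 0.321. The numbers come from the sample titles. Alternatives were background correction, scaling, filter, probe choice, groups in the fit, array weights, the block, the authors' values and leaving out each array. Normexp used the mean signal with its local background and an offset of 50, which makes log2 differences of dim probes smaller.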

Additional observations from a re-analysis of the deposited data

Results flagged for a closer look

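Id1 in control array 1 read 0.2137, and the nearest of the other 3 control arrays read -0.2914. The gap is 0.954 of the group's whole range, above Dixon's 95% critical value for 4 samples. It was the only such gap among 27 groups of values examined (9 tested members in 3 groups), and chance flags about 1 in 20.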

How the results depend on the processing

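Over all genes, the number higher after laser was 2103, and 1188 with normexp, 1199 without the filter, 651 with only laser and control arrays, 3534 with array weights and 449 to 3861 with 1 array left out (extremes without control 1 and control 3). The number lower after laser was 2958, and 1107 with only those groups and 796 to 4133 with 1 array left out. After bur, 2270 were higher, and 1483 with only bur and control arrays, 3631 with weights and 878 to 3794 with 1 array left out; 3678 were lower, and 6286 with normexp, 5750 without the filter and 1911 to 4603 with 1 array left out. Between laser and bur, 1 gene was higher without the filter and 0 otherwise. Normexp moved the median of all genes to -0.08 after laser and -0.24 after bur. Signs turned for Bmp7 after laser (-0.037 with weights), Nog after laser (-0.077 with normexp), and after bur for Bmp2 (-0.12 with weights, -0.15 on the deposited line of the third probe), Bmp3 (0.020 with the percentile over detected probes, 0.0085 deposited), Bmp7 (-0.22 with normexp, -0.51 with weights, 0 deposited), Nog (-0.35 with normexp), Chrd (-0.19 with normexp, -0.080 with weights), Smad6 (-0.24 with normexp), Bmpr1b (-0.037 with normexp) and Acvr2b (-0.20 with normexp). With 1 array left out, Id1 after laser ranged from -0.15 to 0.034, and after bur Bmp3 from -0.27 to 0.15, Bmp7 from -0.21 to 0.35, Nog from -0.13 to 0.47, Grem1 from -0.11 to 0.20 and Chrd from -0.038 to 0.29; laser minus bur for Nog ranged from -0.093 to 0.50.

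Bmp4 after laser kept its sign in all 22 alternatives (0.38 to 0.76, limma adjusted p of 0.0313 to 0.145) and passed in 6. The replicate block ended its call and, among other named genes after laser, those of Bmp1 (limma adjusted p = 0.0561) and Dlx5 (0.0577). Smad6 after laser passed in 3 of 21 and Id1 after bur in 4 of 22. Slide could not be fitted as a block against control, since each group lay on 1 slide. The causes were not tested. Smad6 and Nog lie near background on some control arrays, and Bmp6 on most arrays of every group, which limits their values.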
